A study of Rattus norvegicus with 8 samples.

Results

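Chemokines are small secreted proteins that lay down the gradients along which leukocytes leave the blood and move through tissue, and their receptors are the seven-pass membrane proteins, coupled to inhibitory G proteins, that read those gradients. Ligands are named for the spacing of their first cysteines (CC, CXC, CX3C and XC), and most of the inflammatory ones are made by epithelium, fibroblasts, endothelium and macrophages within hours of a bacterial signal. In the cervix the entry of leukocytes is one of the events that accompany ripening and labour. The genes described here are the rows of the deposited count table whose symbol is that of a chemokine ligand or receptor, chosen by symbol pattern (Ccl, Cxcl, Xcl, Cx3cl, Ccr, Cxcr, Xcr, Cx3cr and Ackr followed by a number, with Ccrl2 and Pf4 added). The pattern took 59 of the 29884 rows, 35 ligands and 24 receptors, the atypical and decoy receptors included.

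RNA was sequenced from the cervix of wild-type Sprague-Dawley rats that were 17 days pregnant when injected into the peritoneum. The LPS group held 4 animals given lipopolysaccharide, a cell-wall glycolipid of Gram-negative bacteria that immune cells sense, at 100 µg/kg, and the PBS group held 4 animals given the same volume of phosphate-buffered saline. Tissue was taken 12 hours later, and LPS given in this way serves as a model of preterm birth. The RNA came from tissue and not from sorted cells, so a library mixes epithelium, stroma, muscle, vessels and leukocytes.

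The LPS libraries held 39580706 to 40408153 counts each and the PBS libraries 33191039 to 40634384. Levels below are in CPM, counts divided by a TMM-scaled library size, and a fold change is the log2 difference, LPS minus PBS, from edgeR's quasi-likelihood test over 16117 genes. A gene was called at a Benjamini-Hochberg adjusted p under 0.05. CPM values are not divided by transcript length, so levels are compared within a gene and not between genes. All 6 markers of the cervix and uterine tract (Pgr, Esr1, Hoxa11, Hoxa13, Hoxd13 and Emx2) passed the filter on low counts, while 0 of the 5 placental and decidual markers did. Markers of several cell types moved with treatment. The summed level of 11 neutrophil markers was 381 to 1568 CPM in LPS libraries and 31.2 to 51.9 CPM in PBS libraries, and that of 12 macrophage and monocyte markers was 1584 to 2345 CPM in LPS libraries and 776 to 1203 CPM in PBS libraries. Of these lists, 5 of 7 tested neutrophil genes and 8 of 11 tested macrophage genes were higher. For this and the marker counts below, 9.49% of all genes tested were called higher and 7.45% lower. S100a8 and S100a9 gave most of the neutrophil sum in every LPS library. Elane, Ltf, Camp and Ngp, which belong to neutrophil granules, fell below the filter, with Ltf at 0 counts in every library. The summed level of 12 T and NK cell markers overlapped, with 78.9 to 129 CPM in LPS and 81.6 to 136 CPM in PBS. Most of that sum was Cd4 alone, at 62.1 to 110 CPM in LPS and 71.8 to 125 CPM in PBS. The sum therefore says little about the other T and NK cell genes, and 3 of 11 tested genes were higher. Red cell markers summed to 110.2 to 629 CPM in LPS libraries and 682 to 2121 CPM in PBS libraries, with 4 of 5 tested genes lower. Squamous epithelium markers summed to 3101 to 4094 CPM in LPS libraries and 4755 to 8715 CPM in PBS libraries, with 1 of 5 lower, the keratin Krt13 (-4.53). Of 7 smooth muscle markers 5 were lower, although the sums overlapped. The part of these shifts in the results below was not tested, and in whole tissue a change in the number of cells of a type and in the RNA of each cell cannot be told apart.

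Of the 59 genes, 51 passed the filter on low counts, 32 ligands and 19 receptors. Among the ligands tested, 21 were called higher and 0 lower in LPS, against 9.49% of all genes tested called higher and 7.45% called lower (16.9% in either direction). In 20 of the 32 every LPS library stood above every PBS library, against 12.9% of all genes tested. Among the receptors tested, 6 were called higher and 2 lower. The median log2 fold change was 2.89 over the ligands tested, 0.37 over the receptors tested and 0.01 over all genes tested. The filter keeps a gene that reaches its minimum in 1 group alone, and 9 of the 51 genes had fewer than 4 PBS libraries at that minimum, 4 of them called higher, so these medians describe the genes that passed and not the whole family. The ligand count was 19 to 22 without any 1 library other than PBS replicate 2, and 17 without that one. The receptor count was 3 higher and 0 lower without PBS replicate 2, and 0 were lower without LPS replicate 1, PBS replicate 1 or PBS replicate 3 as well, and 1 without LPS replicate 2, LPS replicate 4 or PBS replicate 4.

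**Figure D1:**
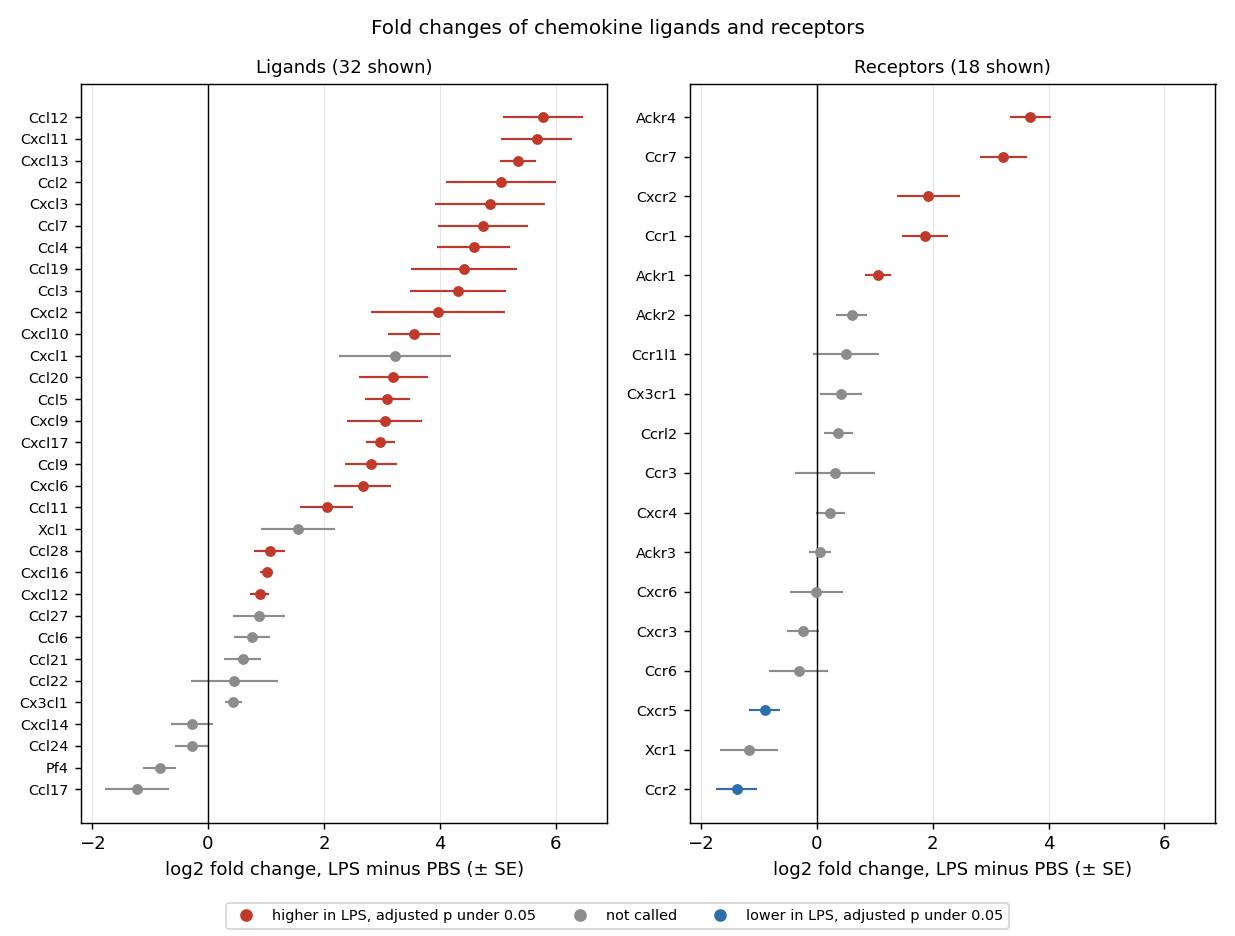
Log2 fold change, LPS minus PBS, of chemokine ligands (left) and receptors (right) that passed the filter on low counts, with its standard error as the bar, and colour for the call at an adjusted p under 0.05. The 21 called ligands lie between 0.89 for Cxcl12 and 5.78 for Ccl12, while the receptors run from -1.38 for Ccr2 to 3.69 for Ackr4.

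Start-site sequences of inflammatory ligands are shown first, since inflammatory chemokines are textbook targets of NF-kB and of interferon-activated factors. RefSeq's table for the assembly GRCr8 held a promoter of 300 bases, from 250 before to 50 after the start, for 44 of the 59 genes. Among those it did not hold were Ackr1, Ccl2, Ccl3, Ccl4, Ccl5, Ccl11, Ccr4, Ccr7, Ccr8, Ccr9, Ccr10, Cxcl3, Cxcr5 and Pf4. Each was searched on both strands for the kappaB consensus, the site bound by NF-kB, for GAAANNGAAA, the core of the interferon-stimulated response element, and for TTCNNNGAA, the gamma-activated site bound by STAT proteins. Stretches around the matches of 3 neutrophil attractants, a monocyte attractant, Ccl20 and 2 interferon-inducible ligands are given 5′ to 3′ on the gene's own strand, with matched letters in capitals. They lie at chr14:17479375-17479425 (Cxcl1, minus strand), chr14:17467299-17467349 (Cxcl2, minus), chr14:17596475-17596525 (Cxcl6, minus), chr10:67514016-67514065 (Ccl7, plus), chr9:91837050-91837099 (Ccl20, plus), chr14:15973634-15973683 (Cxcl11, plus) and chr14:16007178-16007215 (Cxcl9, plus) of GRCr8.
Cxcl1: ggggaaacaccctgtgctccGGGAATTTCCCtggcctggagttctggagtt
Cxcl2: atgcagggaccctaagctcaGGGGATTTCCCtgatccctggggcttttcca
Cxcl6: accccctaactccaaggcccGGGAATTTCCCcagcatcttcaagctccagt
Ccl7: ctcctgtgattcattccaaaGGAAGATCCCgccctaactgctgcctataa
Ccl20: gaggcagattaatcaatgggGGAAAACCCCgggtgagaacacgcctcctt
Cxcl11: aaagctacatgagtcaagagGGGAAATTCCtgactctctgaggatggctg
Cxcl9: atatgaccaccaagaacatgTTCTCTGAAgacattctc

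In Cxcl1, Cxcl2 and Cxcl6 a kappaB match on each strand overlapped to give the longer run in capitals, and the run of Cxcl1 was the same as that of Cxcl6. Their first bases lay at -84, -74 and -88 from the start. The capitals of Cxcl9 are a gamma-activated site downstream of the start, at position 33. The promoter of Cxcl10, at chr14:15988816-15989115 on the plus strand, held an interferon-stimulated response element core first, at -243, and then kappaB matches at -187 and -128, the later one again a pair of overlapping matches.
Cxcl10: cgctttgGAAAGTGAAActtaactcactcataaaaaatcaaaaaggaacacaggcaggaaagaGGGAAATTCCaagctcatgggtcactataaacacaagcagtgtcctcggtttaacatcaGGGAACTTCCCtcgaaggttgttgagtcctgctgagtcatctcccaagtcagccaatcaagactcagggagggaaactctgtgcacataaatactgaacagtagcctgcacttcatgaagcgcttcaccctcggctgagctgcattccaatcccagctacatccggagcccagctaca

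The kappaB consensus was present in 7 of the 15 called ligands with a promoter (46.7%), namely Ccl7, Ccl9, Ccl20, Cxcl2, Cxcl6, Cxcl10 and Cxcl11. It was present in 1 of the 13 other ligands, which was Cxcl1, in 1 of 16 receptors, in 9.74% of the promoters of all genes tested and in 13.9% of those of genes called higher. The 13 other ligands include Ccl1, Ccl25 and Ccl26, and the 16 receptors include Cxcr1, all below the filter on low counts. The receptors were not split by call. The response element core was present in 2 of the 15, Ccl19 and Cxcl10, against 0 of the 13 other ligands, 3.22% over all genes tested and 8.12% over genes called higher. The gamma-activated site was present in 3 of the 15, Ccl7, Cxcl9 and Cxcl11, against 2 of the 13 other ligands (15.4%), 7.13% over all genes tested and 9.47% over genes called higher. A match describes letters in this window and is not a measured binding site.

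Cxcl1, Cxcl2, Cxcl3 and Cxcl6 signal through Cxcr2, the main receptor of neutrophils, and 3 of the 4 were called higher. Cxcl6 had 300.3, 204, 519 and 326 CPM in LPS replicates 1 to 4, against 34.5, 20.8, 58.6 and 98.1 CPM in PBS replicates 1 to 4. Its groups did not overlap, and it rose by 2.67 on the log2 scale (SE 0.49, adjusted p = 0.0087). Cxcl3 had 26.1, 15.7, 105 and 136 CPM in LPS, against 1.12, 0.619, 1.92 and 6.17 CPM in PBS. The groups again did not overlap, LPS replicates 3 and 4 were far above the others, and the gene rose by 4.87 (SE 0.94, adjusted p = 0.0109), though limma-voom did not call it (4.90, adjusted p = 0.0639). Cxcl2 had 7.63, 5.07, 45.8 and 89.5 CPM in LPS, against 0.307, 0.569, 3.15 and 5.52 CPM in PBS. LPS replicate 2 lay below PBS replicate 4, so the groups overlapped. The gene rose by 3.97 (SE 1.15, adjusted p = 0.0475), a call lost without LPS replicate 3 or 4 or any 1 of the 4 PBS libraries (3.05 to 4.78). Neither limma-voom fit called Cxcl2, nor did the fit with no filter on low counts (adjusted p = 0.0829). Cxcl1 had 41.1, 31.0, 216 and 185 CPM in LPS, against 10.7, 4.65, 2.05 and 33.3 CPM in PBS. It did not pass the threshold, with a value of 3.23 (SE 0.97, adjusted p = 0.0523), and it passed without PBS replicate 4, the library that overlapped (4.35, adjusted p = 0.0253). The same held when LPS replicate 2 was dropped (3.54, adjusted p = 0.0472) and with DESeq2 (adjusted p = 0.00748).

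On the receptor side, Cxcr2 had 17.7, 9.57, 21.6 and 63.8 CPM in LPS, against 7.28, 5.79, 6.16 and 10.4 CPM in PBS. LPS replicate 4 was highest, LPS replicate 2 fell below PBS replicate 4, and the log2 rise was 1.93 (SE 0.54, adjusted p = 0.0423). Without LPS replicate 4 it was 1.14 (adjusted p = 0.0485). The call was lost without LPS replicate 1 or 3 or any 1 of the PBS libraries (1.83 to 2.13). Both limma-voom fits and the fit with no filter on low counts (adjusted p = 0.0679) did not call Cxcr2 either. LPS replicate 4 also held the largest summed level of neutrophil markers, with 1568 CPM against 678, 381 and 857 CPM in LPS replicates 1 to 3. S100a9 (794 CPM) and S100a8 (410 CPM) made up most of the sum in LPS replicate 4. The same library was highest for Cxcl2, Cxcl3 and Cxcr2. Cxcr1, the other neutrophil receptor of the family, had 4 counts in PBS replicate 1 and 0 in the other libraries, and fell below the filter.

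Monocyte attractants that bind Ccr2 were higher in every LPS animal than in any PBS animal, while Ccr2 itself was lower. Ccl2 had 37.1, 19.7, 291 and 35.4 CPM in LPS, against 2.61, 3.47, 2.02 and 3.45 CPM in PBS. The groups were far apart, and LPS replicate 3 stood 8.24 times above the median of the other 3 LPS libraries. The log2 rise of Ccl2 was 5.06 (SE 0.94, adjusted p = 0.00929), and without LPS replicate 3 it was 3.41 (adjusted p = 0.000968). Limma-voom, with all libraries, did not call Ccl2 (4.22, adjusted p = 0.0811). Ccl7 had 97.7, 40.5, 411 and 71.7 CPM in LPS, against 4.24, 5.89, 4.14 and 8.87 CPM in PBS. It rose by 4.75 (SE 0.78, adjusted p = 0.00552). LPS replicate 3 was again the highest library, and dropping it gave 3.60. Ccl12, a Ccr2 ligand known from mouse, had 18.5, 14.0, 80.7 and 21.5 CPM in LPS, against 0.664, 0.347, 0.862 and 0.570 CPM in PBS. Of the ligands tested it had the largest fold change, 5.78 (SE 0.69, adjusted p = 0.00164), with 4.87 left without LPS replicate 3.

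Ccr2, the receptor by which classical monocytes leave the bone marrow and enter tissue, had 3.26, 5.32, 2.25 and 6.53 CPM in LPS, against 11.7, 9.65, 15.8 and 8.18 CPM in PBS. No LPS library reached the lowest PBS library, and LPS replicate 3, the highest for Ccl2, Ccl7 and Ccl12, was the lowest for Ccr2. The gene fell by 1.38 (SE 0.35, adjusted p = 0.0292). Its call was lost without LPS replicate 1 (-1.27), or without PBS replicate 1 (-1.37), 2 (-1.46) or 3 (-1.18), and also when PBS replicate 1 and LPS replicate 2 were dropped together (-1.49).

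CC ligands that draw monocytes, macrophages and effector T and NK cells rose in 4 of 5 tested cases. Ccl3 had 10.6, 12.6, 36.3 and 13.9 CPM in LPS, against 0.307, 0.124, 2.44 and 0.809 CPM in PBS, and rose by 4.31 (SE 0.83, adjusted p = 0.0104). Ccl4 had 7.24, 8.34, 32.9 and 10.8 CPM in LPS, against 0.562, 0.248, 0.961 and 0.689 CPM in PBS, and rose by 4.59 (SE 0.63, adjusted p = 0.00279). In both the groups did not overlap and LPS replicate 3 was the highest library, and without it the log2 rises were 3.74 for Ccl3 and 3.83 for Ccl4. Ccl5, which activated T cells also make, had 27.0, 24.0, 49.5 and 21.3 CPM in LPS, against 4.22, 1.91, 5.35 and 2.76 CPM in PBS. It rose by 3.09 (SE 0.39, adjusted p = 0.00191), with groups that did not overlap. Ccl9, a Ccr1 ligand of rodents, was sparse, with 1.04, 1.54, 3.06 and 1.39 CPM in LPS, against 0.332, 0.149, 0.271 and 0.240 CPM in PBS. It rose by 2.81 (SE 0.45, adjusted p = 0.00468). Ccl6, another rodent ligand of Ccr1, was not called. Its values ran from 38.2 to 95.7 CPM in LPS and from 26.2 to 51.2 CPM in PBS, and the fold change was 0.76 (SE 0.32, adjusted p = 0.133).

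Ccr1, which reads several of these ligands, had 19.4, 16.0, 34.3 and 50.8 CPM in LPS, against 12.6, 7.82, 5.47 and 7.07 CPM in PBS. Its groups did not overlap, and it rose by 1.87 (SE 0.40, adjusted p = 0.0161), or by 1.85 without PBS replicate 2, when the call was lost (adjusted p = 0.0545). Ccr1l1, a neighbour of Ccr1, had under 1 CPM in every library and was not called (0.51, SE 0.57, adjusted p = 0.580).

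**Figure D2:**
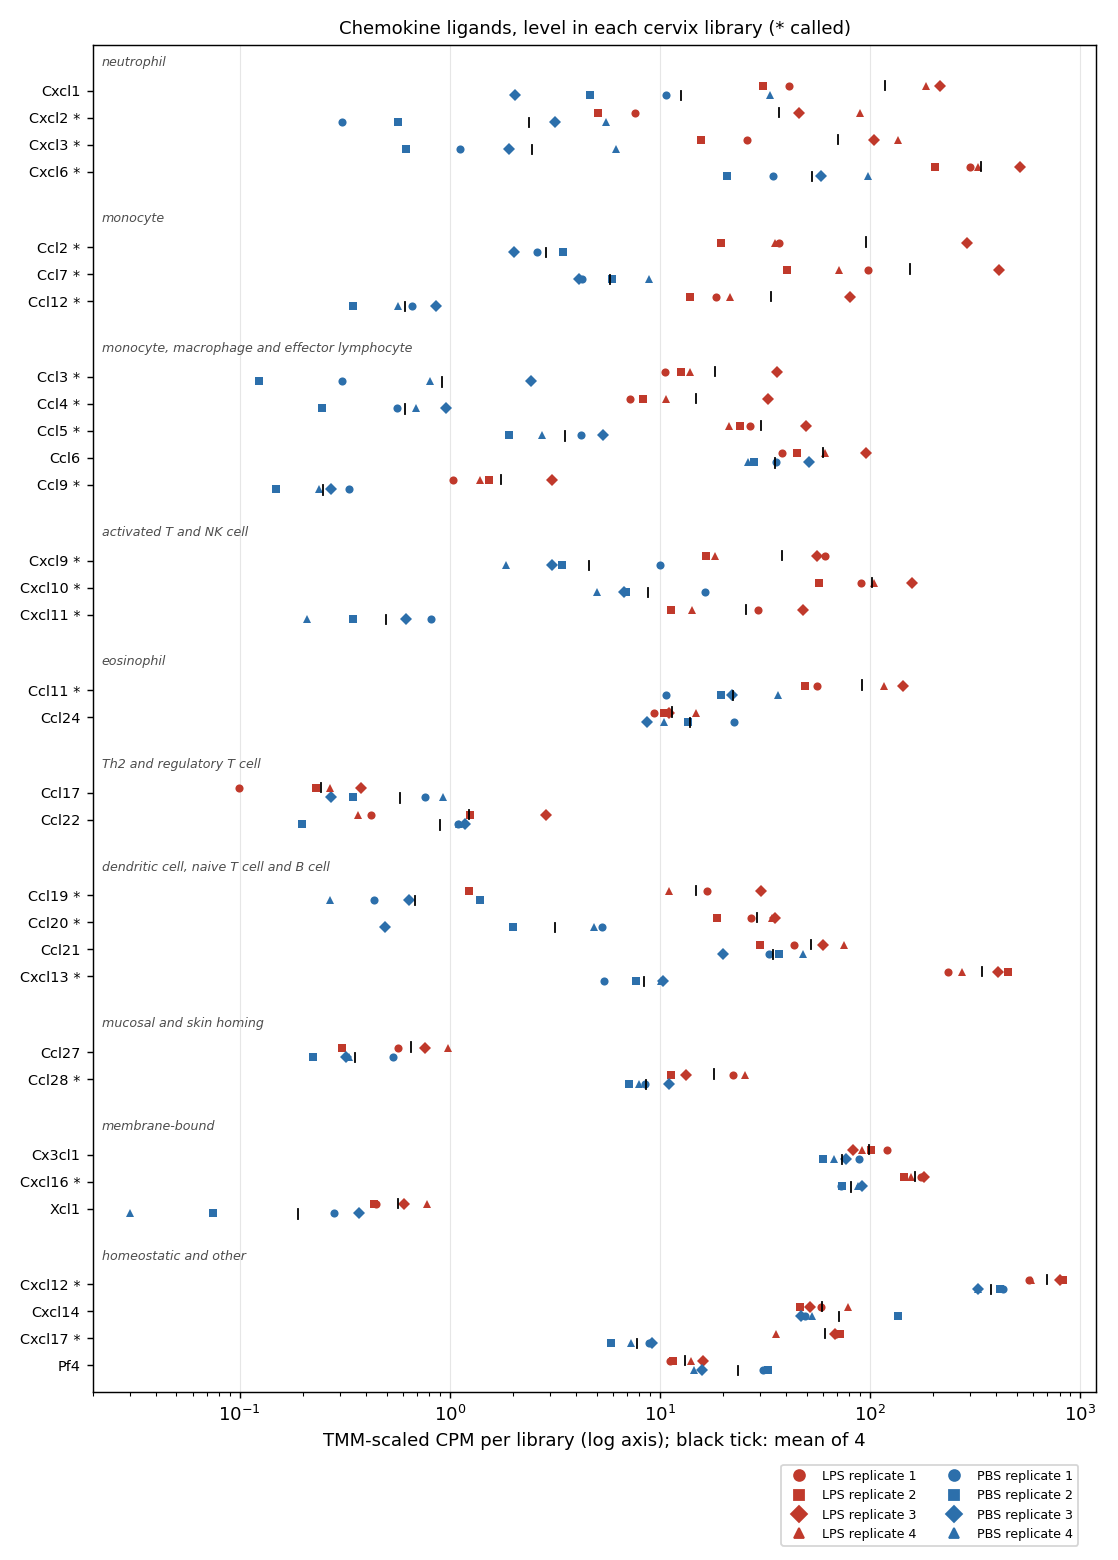
Level of each tested chemokine ligand in each library, as TMM-scaled CPM on a log axis, with LPS libraries in red above PBS libraries in blue, 1 symbol shape per replicate number, a black tick for the mean of 4, and an asterisk on called genes. Cxcl13 runs from 236 to 452 CPM in LPS and from 5.44 to 10.4 CPM in PBS, while the red and blue points of Ccl24, Cxcl14 and Pf4 overlap.

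The interferon-inducible ligands of Cxcr3, which draw activated T cells and NK cells, all rose without overlap. Cxcl10 had 90.9, 57.4, 158 and 105 CPM in LPS, against 16.5, 6.88, 6.73 and 5.01 CPM in PBS, a log2 rise of 3.55 (SE 0.45, adjusted p = 0.00196). Cxcl11 had 29.5, 11.3, 48.1 and 14.2 CPM in LPS, against 0.818, 0.347, 0.616 and 0.210 CPM in PBS, a log2 rise of 5.67 (SE 0.62, adjusted p = 0.00114). PBS replicate 1 was the highest PBS library for both. Cxcl9 had 61.4, 16.6, 55.9 and 18.4 CPM in LPS, against 10.01, 3.42, 3.06 and 1.86 CPM in PBS. It rose by 3.05 (SE 0.65, adjusted p = 0.0151), and with PBS replicate 2 dropped it no longer passed (2.93, adjusted p = 0.0543). Cxcl10 and Cxcl11 lie within the bounds of Art3 in RefSeq, and Art3 itself had a value of -0.71 (adjusted p = 0.149).

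Cxcr3 was not called. It had 1.58, 1.72, 1.47 and 1.52 CPM in LPS, against 1.71, 1.49, 2.76 and 1.44 CPM in PBS, and its fold change was -0.24 (SE 0.28, adjusted p = 0.596). The spread among LPS libraries was narrow, PBS replicate 3 was the highest of all, and without that library the value turned to 0.02 (adjusted p = 0.966). Of the 11 tested T and NK cell markers, 3 were called higher, the cytotoxic genes Gzmb and Prf1 and the co-receptor Cd8a, and 0 lower.

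Ligands that organise lymphoid tissue and draw dendritic cells and lymphocytes held the ligand with the lowest adjusted p. Cxcl13, the B cell attractant read by Cxcr5, had 236, 452, 409 and 275 CPM in LPS, against 5.44, 7.67, 10.4 and 10.1 CPM in PBS. The groups were wide apart and the libraries within each lay close together, giving a log2 rise of 5.35 (SE 0.31, adjusted p = 0.000252). Cxcr5 had 1.61, 2.51, 3.42 and 2.18 CPM in LPS, against 4.27, 4.43, 3.82 and 5.61 CPM in PBS. It fell by 0.90 (SE 0.26, adjusted p = 0.0469) with no overlap, but the call was lost without any 1 library other than LPS replicate 3 (-0.97 to -0.74). Cxcr5 overlaps Bcl9l in RefSeq, and Bcl9l had 103 ± 5.16 CPM in LPS and 106 ± 12.8 CPM in PBS (SD, n = 4 each). Bcl9l was not called (-0.04, adjusted p = 0.821), and reads shared by the pair cannot be told apart. The B cell markers Ms4a1 and Pax5 fell below the filter, and Cd79a and Cd79b were not called.

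Ccl19, which guides Ccr7-bearing dendritic cells and naive T cells, had 16.7, 1.23, 30.3 and 11.1 CPM in LPS, against 0.434, 1.39, 0.641 and 0.270 CPM in PBS. LPS replicate 2 lay within the PBS range while the other 3 were well above it, and the gene rose by 4.42 (SE 0.91, adjusted p = 0.0138). Neither limma-voom fit called Ccl19 (adjusted p = 0.112 with library quality weights and 0.152 without), nor did the fit with the replicate number as a block (adjusted p = 0.0754). Ccl21, the other Ccr7 ligand, had 43.5, 30.1, 60.0 and 75.4 CPM in LPS, against 33.3, 36.9, 20.1 and 48.0 CPM in PBS. Its groups overlapped and it was not called (0.60, SE 0.32, adjusted p = 0.236). Ccr7 had 4.17, 5.17, 9.83 and 3.15 CPM in LPS, against 0.536, 0.446, 0.715 and 0.689 CPM in PBS. It rose by 3.22 without overlap (SE 0.40, adjusted p = 0.00187), the largest rise among the signalling receptors tested, and was called in all 17 alternatives. Of the dendritic cell markers, Itgax and Batf3 were higher and Flt3 was lower, so the list did not move one way.

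Ccl20, an epithelial product that draws Ccr6-bearing dendritic cells and Th17 cells, had 27.3, 18.7, 35.5 and 34.2 CPM in LPS, against 5.29, 2.005, 0.493 and 4.86 CPM in PBS. It rose by 3.2002 (SE 0.60, adjusted p = 0.00965) and its groups did not overlap. Ccr6 ran from 0.614 to 1.95 CPM in LPS and from 0.613 to 2.41 CPM in PBS, and was not called (-0.31, SE 0.52, adjusted p = 0.719).

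Among the eosinophil attractants read by Ccr3, Ccl11 (eotaxin) had 56.2, 49.2, 144 and 117 CPM in LPS, against 10.7, 19.6, 22.1 and 36.4 CPM in PBS. It rose by 2.05 with no overlap (SE 0.45, adjusted p = 0.0178), and without PBS replicate 2 the call was lost (1.99, adjusted p = 0.0589). Ccl24 did not move with it, with 9.34 to 14.8 CPM in LPS and 8.72 to 22.6 CPM in PBS (-0.28, SE 0.29, adjusted p = 0.547). Ccl26 had 0 counts in all 8 libraries. Ccr3 had 0.593, 0.461, 1.57 and 1.74 CPM in LPS, against 0.179, 0.891, 0.616 and 1.83 CPM in PBS, and was not called (0.32, SE 0.69, adjusted p = 0.785). The eosinophil granule genes Epx and Prg2 and the receptor gene Il5ra fell below the filter, while Siglec5, the other gene of that marker list, was higher (2.48).

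The ligands of Th2 and regulatory T cells gave no call. Ccl17 ran from 0.0988 to 0.380 CPM in LPS and from 0.271 to 0.929 CPM in PBS (-1.23, SE 0.55, adjusted p = 0.159). Ccl22 ran from 0.367 to 2.89 CPM in LPS and from 0.198 to 1.18 CPM in PBS (0.46, SE 0.75, adjusted p = 0.719). Ccl1 had at most 1 count in any library, and the receptors Ccr4 and Ccr8 were below the filter with at most 9 and 4 counts in any library.

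Mucosal and skin homing ligands held 1 call. Ccl28, made by mucosal epithelium and read by Ccr10, had 22.2, 11.3, 13.3 and 25.4 CPM in LPS, against 8.48, 7.10, 11.04 and 7.94 CPM in PBS. The groups were separate by a narrow margin, and the log2 rise of 1.06 (SE 0.27, adjusted p = 0.0313) lost its call without LPS replicate 1 or 4 or PBS replicate 1, 2 or 4 (0.85 to 1.05). Ccl27, which overlaps Il11ra1 in RefSeq, stayed under 1 CPM in every library (0.89, SE 0.45, adjusted p = 0.208). Ccl25, Ccr9 and Ccr10 were below the filter.

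The membrane-tethered ligands Cxcl16 and Cx3cl1 and the secreted Xcl1 gave 1 call. Cxcl16, the transmembrane ligand of Cxcr6, had 176, 146, 180 and 156 CPM in LPS, against 72.8, 73.5, 91.7 and 87.5 CPM in PBS. Both groups were tight, and it rose by 1.02 (SE 0.11, adjusted p = 0.0011). Cx3cl1 (fractalkine) had 121, 101, 82.9 and 92.1 CPM in LPS, against 88.8, 60.0, 77.3 and 67.5 CPM in PBS. It was not called (0.44, SE 0.15, adjusted p = 0.0818), and passed without PBS replicate 1 (0.54, adjusted p = 0.0444). Xcl1 was above PBS in every LPS library but sparse, at 0.435 to 0.782 CPM in LPS and 0.0300 to 0.370 CPM in PBS, and was not called (1.55, SE 0.64, adjusted p = 0.128).

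Their receptors were not called. Cxcr6 ran from 0.440 to 2.56 CPM in LPS and from 1.53 to 1.94 CPM in PBS (adjusted p = 0.996). It overlaps Fyco1 in RefSeq, which was not called (-0.13, adjusted p = 0.313), and reads shared by the pair cannot be told apart. Cx3cr1, found on patrolling monocytes and tissue macrophages, had 3.36, 7.30, 4.23 and 2.96 CPM in LPS, against 4.65, 2.92, 3.77 and 1.98 CPM in PBS (0.42, SE 0.36, adjusted p = 0.456). Xcr1, a receptor of cross-presenting dendritic cells, had every LPS library below every PBS library, at 0.101 to 0.636 CPM in LPS and 0.668 to 1.28 CPM in PBS, and did not pass the threshold (-1.16, SE 0.51, adjusted p = 0.148).

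Of the ligands with homeostatic or other roles, Cxcl12 and Cxcl17 rose. Cxcl12, the stromal ligand of Cxcr4, had 571, 832, 804 and 584 CPM in LPS, against 431, 418, 327 and 329 CPM in PBS. It rose by 0.89 without overlap (SE 0.17, adjusted p = 0.00925), the smallest change among called ligands. Beside it, 4 of 6 fibroblast markers were higher, with a summed level of 16829 to 26533 CPM in LPS and 11811 to 14859 CPM in PBS. Cxcl17, a mucosal ligand, had 69.3, 72.2, 68.0 and 35.6 CPM in LPS, against 8.84, 5.87, 9.22 and 7.28 CPM in PBS. Its log2 rise was 2.97 (SE 0.25, adjusted p = 0.000461), and LPS replicate 4 stood below the other LPS libraries but far above PBS. Of 7 columnar epithelium markers tested, 0 were called.

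Cxcl14 had 58.4, 46.4, 52.1 and 78.6 CPM in LPS, against 48.9, 136, 46.8 and 53.3 CPM in PBS. It was not called (-0.28, SE 0.36, adjusted p = 0.638), and its sign turned without PBS replicate 2, the library with 136 CPM (0.25, adjusted p = 0.425). Pf4, the platelet factor that macrophages and megakaryocytes also make, had 11.2, 11.6, 16.1 and 14.1 CPM in LPS, against 31.0, 32.9, 15.9 and 14.6 CPM in PBS. It did not pass the threshold (-0.84, SE 0.29, adjusted p = 0.0781). It passed without PBS replicate 4 (-1.01, adjusted p = 0.0424). Of 4 tested platelet markers, Itga2b was lower (-1.65, adjusted p = 0.0479) and Gp6 higher (1.86, adjusted p = 0.00447). Ppbp (0.20) and Itgb3 (-0.04) were not called. Like Pf4, Itga2b was highest in PBS replicates 1 and 2, with 8.86 and 15.8 CPM. Red cell markers, with 4 of 5 tested genes lower, summed to 2121, 1568, 682 and 1698 CPM in PBS replicates 1 to 4. That sum was higher in PBS replicate 4 than in PBS replicate 2, unlike Pf4. The part of platelets and red cells in the Pf4 value was not tested. Cxcr4 had 5.95, 8.93, 10.2 and 7.73 CPM in LPS, against 6.004, 7.40, 9.61 and 4.80 CPM in PBS, and was not called (0.24, SE 0.25, adjusted p = 0.548).

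**Figure D3:**
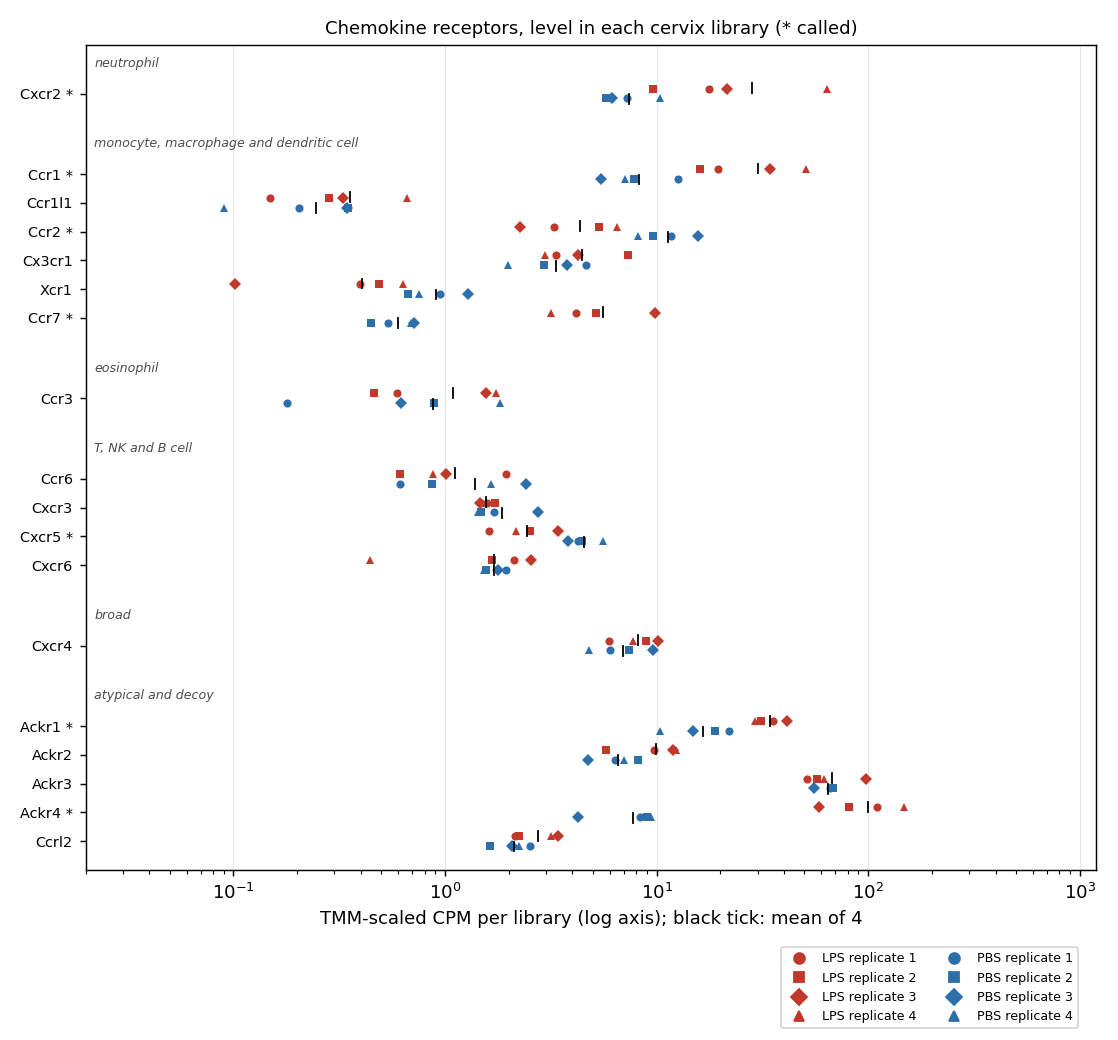
Level of tested chemokine receptors in each library, as TMM-scaled CPM on a log axis, with LPS libraries in red above PBS libraries in blue, 1 symbol shape per replicate number, a black tick for the mean of 4, and an asterisk on called genes. Ccr7 and Ackr4 separate widely upward, Ccr2 and Cxcr5 separate downward, and Cxcr3, Cxcr4 and Ackr3 overlap.

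Atypical receptors bind chemokines without signalling through G proteins and clear, store or carry them. Ackr4, which scavenges Ccl19, Ccl21 and Ccl25, had 109.9, 81.2, 58.8 and 148 CPM in LPS, against 8.35, 8.96, 4.24 and 9.38 CPM in PBS. It had the largest fold change among the receptors, 3.69 (SE 0.35, adjusted p = 0.000761), and LPS replicate 3 was its lowest LPS library. Ackr4 lies within the bounds of Acad11 in RefSeq. Acad11 was called higher too, at 90.7 ± 24.2 CPM in LPS and 38.1 ± 4.59 CPM in PBS (SD, n = 4 each; log2 rise 1.25), and without a stated strand setting reads shared by the pair cannot be told apart.

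Ackr1, by which venular endothelium carries inflammatory CC and CXC ligands to its surface, had 35.6, 31.0, 41.5 and 29.1 CPM in LPS, against 21.9, 18.8, 14.9 and 10.4 CPM in PBS. It rose by 1.05 (SE 0.22, adjusted p = 0.0150) without overlap, and was called in all 17 alternatives. The blood endothelial markers beside it gave 0 genes higher and 1 lower of 7 tested. Ackr2, a scavenger of inflammatory CC ligands, had 9.71, 5.78, 12.0 and 12.4 CPM in LPS, against 6.36, 8.17, 4.76 and 6.98 CPM in PBS. It was not called (0.60, SE 0.26, adjusted p = 0.151), but passed without LPS replicate 2 (0.78, adjusted p = 0.0420). Ackr3, which scavenges Cxcl12, had 51.5, 57.4, 97.8 and 62.1 CPM in LPS, against 66.2, 68.1, 55.6 and 67.7 CPM in PBS. It was not called (0.06, SE 0.19, adjusted p = 0.856), and its sign turned without LPS replicate 3 (-0.18). Ccrl2, which binds the chemoattractant chemerin, had 2.15, 2.23, 3.42 and 3.18 CPM in LPS, against 2.53, 1.63, 2.07 and 2.25 CPM in PBS. Its groups overlapped and it was not called (0.37, SE 0.25, adjusted p = 0.341).

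Set against each other, ligands and receptor were called higher for the Cxcr2, Ccr1 and Ccr7 systems, though Cxcl1, Ccl6 and Ccl21 were not called. The ligands rose while the receptor fell for Ccr2 (log2 fold changes of 4.75 to 5.78 in the ligands and -1.38 in the receptor) and for Cxcr5 (5.35 and -0.90). They rose with no call on the receptor for Cxcr3 (3.05 to 5.67 in the ligands and -0.24 in the receptor), Ccr6 (3.2002 and -0.31), Cxcr6 (1.02 and 0.00 to 2 decimals), Cxcr4 (0.89 and 0.24) and Ccr3 (2.05 in Ccl11 and 0.32 in the receptor). The difference between ligand and receptor fold changes was not tested. Lower calls numbered 2 of the 19 receptors tested, against 7.45% of all genes tested. The calls of Ccr2 and Cxcr5 were both lost without LPS replicate 1 or PBS replicate 1, 2 or 3. With the replicate number as a block they were lost too. Without PBS replicate 2 the calls of Cxcr2 and Ccr1 were also lost. In RefSeq another annotated gene overlaps 19 of the 59 members. Among those compared here they are the receptors Ccr3, Ccr6, Ccr7, Cxcr5 and Cxcr6 and the ligands Ccl3, Ccl6, Cxcl10, Cxcl11 and Cxcl16. Their values may hold reads of the overlapping genes.

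Many of these genes sit side by side. In RefSeq's order of protein-coding genes, 38 of the 59 fall into 10 blocks in which members have at most 1 other gene between them. The block Ccl2, Ccl7, Ccl11, Ccl12 and Ccl1 had 4 genes called higher and Ccl1 below the filter. The block Ccl5, Ccl9, Ccl6, Ccl3 and Ccl4 had 4 called higher, with Ccl6 not called. All 3 genes of the block Cxcl11, Cxcl10 and Cxcl9 were called higher. In the block Cxcl2, Cxcl1, Cxcl3, Pf4 and Cxcl6, 3 were called higher, and Pf4, between Cxcl3 and Cxcl6, had a value of -0.84. Ccl19 rose between Ccl27 and Ccl21, which were not called. The blocks Ccl24 and Ccl26, Ccl17, Cx3cl1 and Ccl22, and Cx3cr1 and Ccr8 held 0 called genes, and in the block Cxcr2 and Cxcr1 only Cxcr2 was tested and called. Whether neighbours moved together more than other members was not tested. In the large receptor block, Ccr1 rose, Ccr2 fell, and Cxcr6, Xcr1, Ccr3 and Ccr1l1 were not called.

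**Figure D4:**
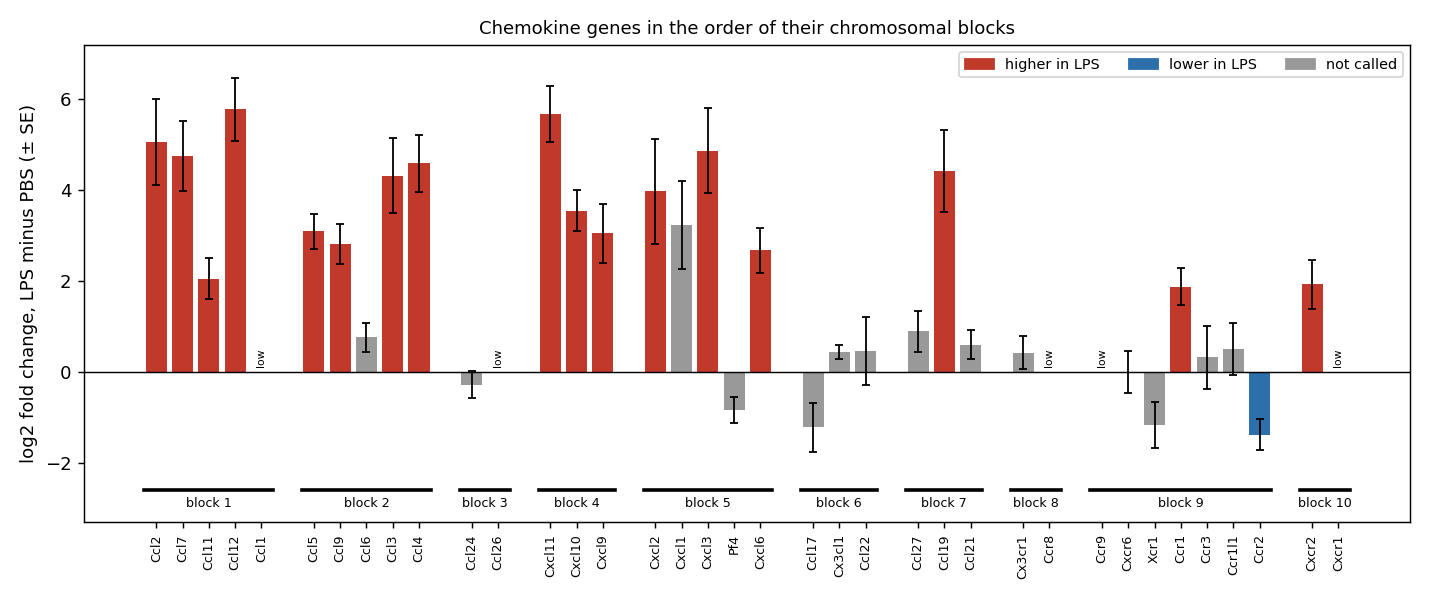
Log2 fold change, LPS minus PBS, of chemokine genes in each of 10 blocks of neighbours, in RefSeq's gene order and not to scale along the chromosome, with the standard error as the bar and "low" for genes below the filter on low counts. The 3 genes of block 4 are all red, whereas block 9 holds red, blue and grey bars.

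LPS animals were not alike in their chemokine level. LPS replicate 3 was the highest LPS library for 14 of the 21 called ligands (66.7%) and for 769 of the 1529 genes called higher (50.3%). LPS replicate 2 was the lowest LPS library for 14 of the 21 (66.7%) and for 395 of the 1529 (25.8%). Against the median of the other 3 LPS libraries, LPS replicate 3 held 8.24 times as much Ccl2, 5.73 times as much Ccl7 and 4.35 times as much Ccl12. Of the neutrophil attractants, Cxcl2 was 11.7 times that median in LPS replicate 4 and 5.999 times in LPS replicate 3, and Cxcl3 was 5.21 times and 4.04 times. Cxcl1 was 4.4997 times that median in LPS replicate 4 and 5.27 times in LPS replicate 3, and Cxcl6 was highest in LPS replicate 3. Cxcr2 was 3.60 times that median in LPS replicate 4. With LPS replicate 3 left out, the median over the 32 ligands was 2.58 and 20 were called higher.

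**Figure D5:**
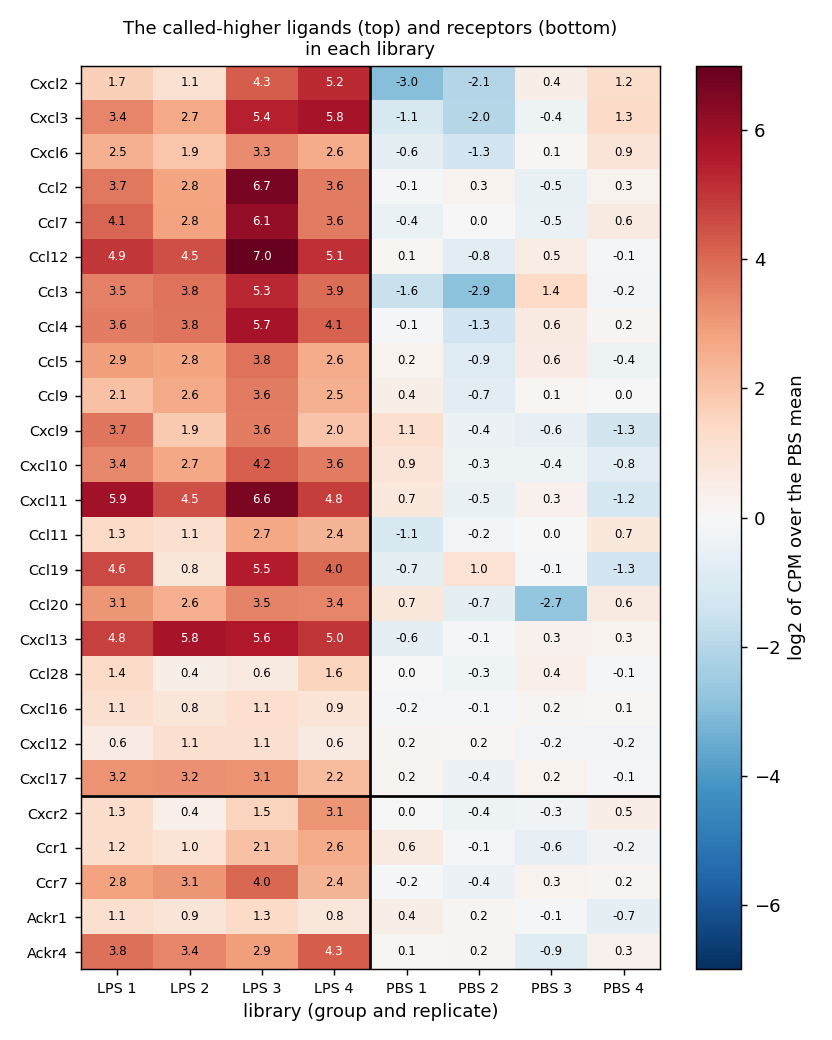
Log2 of each library's CPM over the mean of the 4 PBS libraries, for ligands (above the line) and receptors (below it) called higher, with LPS libraries left of PBS libraries. LPS replicate 3 is darkest for the Ccr2 ligands, LPS replicate 4 for Cxcl2, Cxcl3 and Cxcr2, and LPS replicate 2 is pale for Ccl19.

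Genes of the wider pathway were taken from fixed lists. Over all genes tested, 9.49% were called higher and 7.45% lower. Of 8 tested cytokines that induce chemokines, 4 were higher and 0 lower (median 1.93). Il1b had 64.3 ± 17.7 CPM in LPS and 13.9 ± 6.80 CPM in PBS (SD, n = 4 each; log2 rise 2.21, SE 0.34, adjusted p = 0.00435), and Csf3, the growth factor of neutrophils, rose by 1.85 (adjusted p = 0.0111). Ifng and Ifnb1 were below the filter, with 0 counts of Ifnb1 in every library. Of 16 regulators of transcription and mRNA decay, 12 were higher and 0 lower (median 1.02). The NF-kB subunit Relb rose by 2.12 (SE 0.17, adjusted p = 0.0004) and Stat2, which carries the type I interferon signal, by 1.49 (SE 0.15, adjusted p = 0.000838).

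Of 23 genes that carry or dampen chemokine receptor signals, 12 were higher and 0 lower (median 0.80), against 9.49% higher over all genes. The Src-family kinase Lyn was among them, with a log2 rise of 1.14 (SE 0.08, adjusted p = 0.000267). Of 10 tested genes of other chemoattractants and their receptors, 4 were higher and 0 lower (median 0.36). C3ar1 and C5ar1, the receptors for the complement fragments C3a and C5a, were both among them, C3ar1 with a log2 rise of 2.65 (SE 0.26, adjusted p = 0.000838) and C5ar1 with one of 1.84 (SE 0.16, adjusted p = 0.000546). Of 15 genes that bind or cleave chemokines or build heparan sulfate, 3 were higher and 1 lower (median 0.07). The gelatinase Mmp9 rose by 7.06 (SE 0.57, adjusted p = 0.0004) and the heparan sulfate carrier Sdc4 by 1.66 (SE 0.24, adjusted p = 0.00355). Ndst1, an enzyme of heparan sulfate sulfation chosen here after seeing its value, fell by 0.69 (adjusted p = 0.0355).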

How the data were processed

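The submitters' processing notes name the build mRatBN7.2 and the tools HISAT2, HTSeq, fastp and R 3.2.0, without their roles. The table the authors deposited holds counts that are not normalized, with gene symbols as rows. The annotation, and whether counting used strand, is not given in the sources used here. Reads of overlapping genes and close copies therefore cannot be told apart. Columns were matched to samples by library name. Replicate numbers are those of the sample titles, and the library name of LPS replicate 4 carries a different number. Replicates are biological, per the design text. Within groups, libraries were further apart than counting noise allows (chi-square per degree of freedom at least 57.2 for each pair).

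Genes were kept by filterByExpr by group, scaled by TMM and tested with edgeR 4.0.16 in R 4.3.3 (robust quasi-likelihood F test, no covariate, Benjamini-Hochberg over 16117 genes). The SE is the size of the log2 fold change over the square root of F. 3 counts equal 0.0734 to 0.0899 CPM, for counting error only. The fit was tested on simulated data. The alternatives tried were scaling by RLE or by upper quartile, DESeq2 1.42.0, limma 3.58.1 (voom, plain and with library quality weights), a stricter filter (1 CPM in 4 or more libraries) or none, each library left out, PBS replicate 1 and LPS replicate 2 left out (the pair that principal component 2 set apart), and the replicate number as a block.

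The genes and lists were chosen with earlier results of these data known. Named with every library's value were called genes and a fixed set of well-known members, with range and test for the rest, and the 2 called genes of lowest adjusted p of each pathway list. Promoters and gene order come from RefSeq for GRCr8, in which all 59 symbols matched. Some items included in the counts are not reported here by name or value.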

Additional observations from a re-analysis of the deposited data

Results flagged for a closer look

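Within a group of 4 libraries, 9 of the 82 sets of values examined (41 genes in 2 groups) had a highest or lowest library whose gap to its nearest neighbour exceeded Dixon's critical value for 4 samples, as a share of the group's range. For independent, normally distributed values that happens in about 1 in 20. The values here were CPM without a log, and several flags fell on the same library. The share flagged therefore cannot be read against that figure. LPS replicate 3 was such a highest library for Ccl2 (291 CPM, others 19.7 to 37.1), Ccl7 (411 CPM, others 40.5 to 97.7), Ccl12 (80.7 CPM, others 14.0 to 21.5), Ccl3 (36.3 CPM, others 10.6 to 13.9) and Ccl4 (32.9 CPM, others 7.24 to 10.8). LPS replicate 4 was a lowest library for Cxcl17 (35.6 CPM, others 68.0 to 72.2). In PBS, replicate 1 was the highest for Cxcl10 (16.5 CPM, others 5.01 to 6.88), replicate 2 the highest for Cxcl14 (136 CPM, others 46.8 to 53.3), and replicate 3 the lowest for Ackr3 (55.6 CPM, others 66.2 to 68.1).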

How the results depend on the processing

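Of 21 ligands called higher, 14 were called in all 17 alternatives (Ccl3, Ccl4, Ccl5, Ccl7, Ccl9, Ccl12, Ccl20, Cxcl6, Cxcl10, Cxcl11, Cxcl12, Cxcl13, Cxcl16 and Cxcl17), and of 8 called receptors, 3 were (Ackr1, Ackr4 and Ccr7). The count of higher ligands ran from 17 to 22 and of lower ligands from 0 to 1 with 1 library left out, and DESeq2 called 1 lower ligand, Pf4. Limma-voom called 16 higher ligands. Higher receptors ran from 3 to 7 and lower ones from 0 to 2 with 1 library left out. Lower receptors numbered 1 with no filter on low counts, 0 without PBS replicate 1 and LPS replicate 2, and 0 with the replicate number as a block. Over all genes, 904 to 1385 were higher and 563 to 1199 lower with 1 library left out, and 2089 were lower with DESeq2. The cause was not tested.

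The replicate block left 19 higher ligands and 5 higher receptors, and 1151 higher and 845 lower genes. Deviations of libraries with the same number correlated from -0.18 to 0.21, and the numbers were not taken as pairs. Signs turned in genes that were not called. With 1 library left out, Ackr3 ran from -0.18 (without LPS replicate 3) to 0.17, Ccr3 from -0.028 (without PBS replicate 1) to 0.95, Cxcl14 from -0.44 to 0.25 (without PBS replicate 2) and Cxcr3 from -0.34 to 0.023 (without PBS replicate 3). Ackr3 was -0.0014 without PBS replicate 3 and -0.059 with weighted limma-voom. Scaling moved the median of all genes by under 0.1. Genes with few counts, such as Ccr4, Ccr8, Ccl1 and Ccl25, could not be compared at this depth.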
